A study of Homo sapiens with 12 samples.

Results

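The clustered protocadherins are a family of cell-surface adhesion genes that lie side by side on human chromosome 5q31 in an alpha, a beta and a gamma cluster. They were found by symbol in the deposited count tables, and 54 of 60624 genes matched: 16 alpha, 16 beta and 22 gamma members. The libraries were made from MEL1, a human embryonic stem cell line, after expandable pancreatic progenitors (ePP) of that line had been turned into islet-like cells and kept to day 8 in the medium named R6. There were 4 groups of 3 libraries, which are NKX2-2 knockout with its own wild type and CLEC16A knockout with its own wild type. NKX2-2 is a homeodomain transcription factor of islet cells, and CLEC16A regulates mitophagy. The sample titles abbreviate both genes, and the names were read from the deposited tables.

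All groups shared the line, the progenitor stage and the medium, which held T3, forskolin, vitamin C, zinc sulfate, heparin, inhibitors of the TGF-beta and BMP receptors and Compound E, an inhibitor of gamma-secretase. Progenitors of all groups had grown on feeder cells with EGF, bFGF and a BET inhibitor. No clone is named in the titles, so a knockout and any other difference between its line and the wild type line cannot be told apart. Since the replicates are not said to be separate cultures, each p-value rests on a spread between libraries that may be technical.

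Each clustered protocadherin is a transmembrane protein with cadherin repeats outside the cell that binds the same protein on a neighbouring cell. In the alpha and gamma clusters every member has its own promoter and its own large first exon, which is spliced to constant exons that the cluster shares, whereas a beta member is essentially 1 exon of its own. In neurons each cell switches on a small and largely random choice of these promoters, with CTCF and cohesin joining an active promoter to distant enhancers, and the resulting protein sets serve the recognition of a cell's own branches. The C-type members at the 3' ends of the alpha and gamma clusters (PCDHAC1, PCDHAC2, PCDHGC3, PCDHGC4 and PCDHGC5) are used more uniformly among neurons.

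On GRCh38 with the GENCODE 29 annotation, all 54 members are on the plus strand of chromosome 5. The alpha members span chr5:140786136-141012347, the beta members chr5:141051135-141249365 and the gamma members chr5:141330571-141512981. The shared exons bear on every value below. In that annotation the median share of a member's exon bases that no other gene holds is 50.5% in the alpha, 94.8% in the beta and 56.2% in the gamma cluster. The treatment of reads from shared exons, or of reads that match several paralogs, in the authors' counting is not given in the sources used here. Levels of alpha and gamma members are therefore less certain than those of beta members.

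Many promoters of the clusters, though not all, carry a short conserved element with the core CGCT. RefSeq promoters (GRCh38.p14) were matched by symbol for 47 of the 54 members. In the 100 bases before the start, CGCT read on the gene's own strand was present in 12 of 13 alpha, 13 of 14 beta and 19 of 20 gamma promoters, against 28.0% of 27305 promoters of all genes, 1 per gene. Counting either strand, the members' share stayed at 93.6% and that of all promoters was 44.6%. These shares count CGCT alone and do not measure the conserved element. The promoter-side ends of 6 members that the results below turn on are shown, 5' to 3', with each CGCT in capitals. They hold the bases before the RefSeq start, up to the first annotated exon base. Capitals mark every CGCT, and which of them belongs to the conserved element was not determined.
PCDHGB4: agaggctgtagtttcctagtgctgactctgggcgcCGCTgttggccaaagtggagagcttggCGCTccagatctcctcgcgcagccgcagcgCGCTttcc
PCDHGB5: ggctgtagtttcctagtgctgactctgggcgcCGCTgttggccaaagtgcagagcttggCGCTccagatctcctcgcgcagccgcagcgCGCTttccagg
PCDHGB6: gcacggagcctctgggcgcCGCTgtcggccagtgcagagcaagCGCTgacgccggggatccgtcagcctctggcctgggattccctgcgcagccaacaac
PCDHGB7: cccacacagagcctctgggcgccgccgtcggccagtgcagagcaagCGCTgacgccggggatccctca
PCDHGA10: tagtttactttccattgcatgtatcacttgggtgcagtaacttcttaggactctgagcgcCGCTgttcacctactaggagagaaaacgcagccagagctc
PCDHB5: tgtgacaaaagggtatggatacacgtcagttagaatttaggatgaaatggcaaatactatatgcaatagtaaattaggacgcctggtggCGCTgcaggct

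These stretches lie on the plus strand at chr5:141387598-141387697 (PCDHGB4), chr5:141397847-141397946 (PCDHGB5), chr5:141407921-141408020 (PCDHGB6), chr5:141417577-141417644 (PCDHGB7), chr5:141412887-141412986 (PCDHGA10) and chr5:141135106-141135205 (PCDHB5). The gamma stretches fall in introns of the gamma members that start further upstream, 10 of them for PCDHGB4 and 16 for PCDHGB7, and that of PCDHB5 lies in no other member. Over 100 bases before the start, PCDHGB4 and PCDHGB5 were identical at 93.2% and PCDHGB6 and PCDHGB7 at 89.3% of aligned positions. Where PCDHGB6 has its upstream CGCT, PCDHGB7 reads CGCC. The CGCT in capitals in PCDHGB7, by which it was counted above, matches the downstream CGCT of PCDHGB6. The median over the 190 gamma pairs was 47.7%.

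The NKX2-2 libraries held 16157481 to 20649976 counts each and the CLEC16A libraries 31364272 to 33763795, of which the 54 members took 3409 to 6493 counts. Replicates were unevenly alike, since by a chi-square per degree of freedom over all genes NKX2-2 wild type replicate 3 stood at 17.0 from each of the other wild type libraries, which were at 3.84 from each other, and knockout replicates 1 and 3 were at 25.3. The other replicate pairs ran from 4.75 to 14.1. Transcripts of the targeted genes do not check the labels, because NKX2-2 was at 91.9, 68.0 and 68.3 CPM (counts scaled to a common library size) in the libraries labelled knockout and at 95.4, 96.6 and 93.4 CPM in wild type (log2 fold change -0.32, SE 0.12, edgeR adjusted p = 0.061). CLEC16A was at 35.4, 38.0 and 36.8 CPM in the libraries labelled knockout and at 36.2, 30.1 and 30.8 CPM in wild type (0.18, SE 0.09, edgeR adjusted p = 0.0949). Markers of the labelled islet cells were present in all libraries, and most were called lower in both experiments. After NKX2-2 knockout 12 of 16 fell, and SST and ISL1 rose (log2 fold change 2.21 and 0.32). After CLEC16A knockout 15 of 16 fell, and SCG2 rose (0.30). Of all genes tested, 33.4% and 45% were called in either direction, in that order.

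A few members carried most of the signal in each cluster. PCDHA4, PCDHA10 and PCDHA12 led the alpha cluster in every group, PCDHB2 and PCDHB10 were among the first 3 of the beta cluster in all groups, and PCDHGB6 led the gamma cluster in all groups. Between 5 and 6 alpha, 8 and 9 beta, and 4 and 6 gamma members held 90% of a cluster's counts. At the other end, PCDHA1, PCDHA14, PCDHGA3, PCDHGA5 and PCDHGA7 had 0 counts in all 12 libraries. PCDHA14 is a pseudogene inside an exon of PCDHA10. In all, 16 members never exceeded 10 counts in any library, 11 of them gamma members. A count of 0 allows up to 3 counts in a library, for counting error only.

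Levels per length were read from the deposited TPM (transcript abundance per length, scaled to a fixed total). In the beta cluster PCDHB2 was highest, with a mean of 4.37 TPM in NKX2-2 knockout, 5.35 in its wild type, 12.7 in CLEC16A knockout and 13.1 in its wild type, and PCDHB5 in NKX2-2 knockout came next in that experiment at 3.03 TPM. TPM totals of the experiments differ, since the listed genes hold 41.4% to 47.2% of the full total in the NKX2-2 libraries and 99.7% to 99.8% in the CLEC16A libraries, so TPM are compared within an experiment. PCDHGB6 was the highest gamma member, at 13.2 against 7.40 TPM after NKX2-2 knockout and at 18.0 against 37.5 TPM after CLEC16A knockout. In the alpha cluster PCDHA4 was highest in the NKX2-2 experiment, at 10.6 TPM in knockout and 10.8 TPM in wild type. By CPM per kilobase of exon bases that no other gene holds, PCDHA12 came before PCDHA4 there. The values were 7.34 against 4.00 in knockout and 11.4 against 4.21 in wild type. This measure divides all counts of a member by its own bases. Any reads counted from shared exons therefore raise it most where the own share is small. That share is 36.9% for PCDHA12 and 78.7% for PCDHA4, so the order of these members is not settled. PCDHA10 had the highest mean TPM of the CLEC16A experiment, but there its TPM ran from 9.97 to 228 between libraries while its counts stayed between 732 and 1047, so its TPM was not read as a level.

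**Figure D1:**
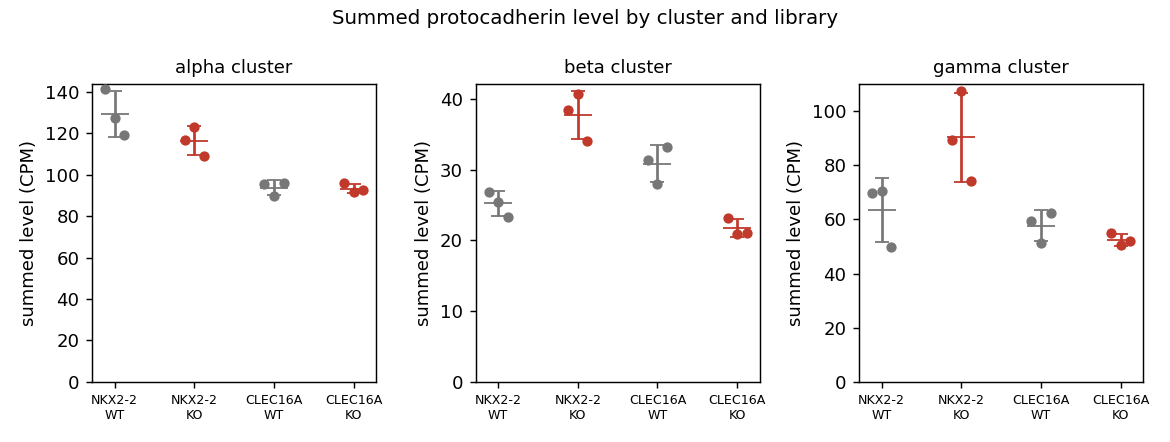
Summed level of the alpha, beta and gamma members in CPM (vertical axes) for each library (points), by group, with the group mean and SD (bar and whiskers, n = 3). The beta sum was higher in NKX2-2 knockout (37.8 CPM against 25.3) and lower in CLEC16A knockout (21.8 against 30.9) than in wild type, and the alpha sums overlapped in both experiments.

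As whole clusters, the alpha sum differed least between knockout and wild type. In the NKX2-2 experiment it was 116 ± 7.0 CPM in knockout and 129 ± 11.2 in wild type, and in the CLEC16A experiment 93.3 ± 2.2 and 93.7 ± 3.7 (SD, n = 3), with overlapping groups in both. The beta sum was 38.5, 40.7 and 34.0 CPM in NKX2-2 knockout against 26.9, 25.5 and 23.4 in wild type, a log2 ratio of 0.58. The groups did not overlap, but without PCDHB5 they did, and the log2 ratio was 0.12. In the CLEC16A experiment the beta sum was 23.2, 21.0 and 21.1 CPM in knockout against 31.4, 28.0 and 33.2 in wild type, a log2 ratio of -0.50 with no overlap. Here leaving out PCDHB5 kept the groups apart, at 20.7 to 22.8 against 27.8 to 32.7 CPM. The gamma sum was 89.5, 107 and 74.3 CPM in NKX2-2 knockout against 69.9, 70.6 and 49.8 in wild type, a log2 ratio of 0.51, with the groups apart. In the CLEC16A experiment it was 54.9, 50.5 and 52.2 against 59.4, 51.2 and 62.4 CPM, with overlap. In bulk RNA, fewer cells of a type and less RNA per cell cannot be told apart.

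After NKX2-2 knockout, 6 members rose and 3 fell among the 29 that passed the filter on low counts, and PCDHB5 rose most. Of all 17436 genes tested, 33.4% were called (16.6% higher, 16.8% lower) by edgeR at an adjusted p under 0.05, against 31% of the tested members, so the share of members called is near the background. By cluster, 1 alpha member rose and 1 fell of 12 tested, 2 beta members rose and 0 fell of 9, and 3 gamma members rose and 2 fell of 8. Changes of at least 2-fold were called for 5 tested members and for 12.8% of all genes, and the groups of libraries did not overlap for 12 of the 29 tested members and for 45.5% of all genes. The remaining 25 members were not tested, with at most 18 counts in any library of this experiment, and 5 of them were at 0 in all 6.

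PCDHB5, a beta member with 85.3% of its exon bases to itself, was at 11.0, 10.5 and 11.1 CPM in the NKX2-2 knockout libraries and at 0.336, 0.404 and 0.508 CPM in wild type. These stand for 183, 209 and 192 counts against 7, 8 and 9, and the groups were far apart. The log2 fold change was 4.69 (SE 0.23, a 25.9-fold rise, edgeR adjusted p = 1.75e-08). Its share of the beta counts was 28.9% ± 3.4 in knockout and 1.67% ± 0.47 in wild type (SD, n = 3). PCDHB14, the other beta member called, was at 3.43, 3.85 and 2.37 CPM in knockout and 1.59, 2.07 and 1.69 CPM in wild type (log2 fold change 0.85, SE 0.26, edgeR adjusted p = 0.0223). Its groups lay apart by little, and the call was lost with DESeq2 (adjusted p = 0.0582) and on leaving out knockout replicate 1 (0.0602), knockout replicate 2 (0.113), wild type replicate 1 (0.0923) or wild type replicate 3 (0.0538). PCDHB2, the beta member with the highest level, was at 9.33, 12.1 and 8.89 CPM in knockout and 10.4, 10.5 and 9.93 in wild type, which overlap (log2 fold change -0.02, SE 0.15).

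**Figure D2:**
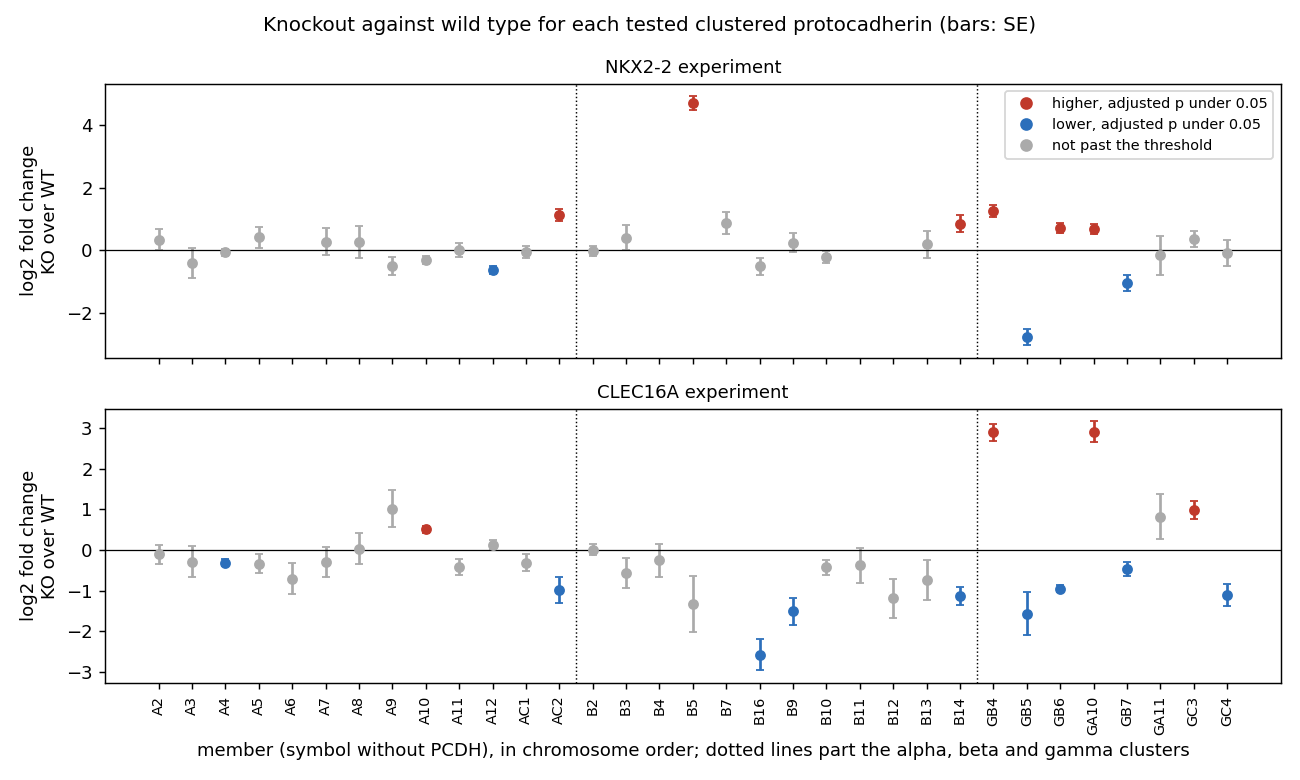
Log2 fold change of knockout over wild type (points, with SE whiskers) for each member tested in either experiment, in chromosome order within the alpha, beta and gamma clusters. Red and blue points passed an adjusted p under 0.05, and PCDHB5 in the NKX2-2 experiment stands at 4.69, above all others.

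In the gamma cluster, the first member rose and the second fell in each of the pairs with near-identical promoters. PCDHGB4 was at 8.67, 12.9 and 9.29 CPM in NKX2-2 knockout and 4.23, 4.50 and 4.23 CPM in wild type (log2 fold change 1.25, SE 0.19, edgeR adjusted p = 0.000174). PCDHGB5, whose promoter end differs from that of PCDHGB4 at few positions, was at 0.722, 0.650 and 0.462 CPM in knockout and 4.33, 3.99 and 4.35 CPM in wild type. It fell by 2.77 on the log2 scale (SE 0.27, edgeR adjusted p = 4.33e-06). Neither gene's groups overlapped, and the directions were opposite. With limma on log2(TPM + 1) and no filter, the calls of PCDHGB4 (adjusted p = 0.092), PCDHGB6 (0.0509), PCDHGB7 (0.0924) and PCDHB14 (0.315) were lost. The sum of PCDHGB4 and PCDHGB5 does not depend on how reads were split within the pair. It was 9.39, 13.6 and 9.75 CPM in knockout and 8.55, 8.49 and 8.58 CPM in wild type, higher in every knockout library. Exon sharing with other genes still bears on this sum. Only 35.6% of the exon bases of PCDHGB4 and 55.0% of those of PCDHGB5 are held by no other gene. Identity of the exons within the pair was not measured.

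PCDHGB6 was at 44.6, 49.4 and 34.8 CPM in NKX2-2 knockout and 29.8, 28.5 and 20.5 in wild type (log2 fold change 0.71, SE 0.16, edgeR adjusted p = 0.00451). Its neighbour in sequence, PCDHGB7, was at 1.99, 2.101 and 1.85 CPM in knockout and 3.22, 5.81 and 3.27 in wild type (log2 fold change -1.05, SE 0.27, edgeR adjusted p = 0.00934). Leaving out wild type replicate 2, the highest, ended that call (adjusted p = 0.0662). PCDHGA10 was at 15.0, 19.7 and 13.5 CPM in knockout and 11.2, 10.0 and 8.86 in wild type (log2 fold change 0.68, SE 0.16, edgeR adjusted p = 0.00606), with the groups apart. Of the C-type gamma members, PCDHGC3 was at 15.0, 18.7 and 12.8 CPM in knockout and 14.5, 15.2 and 6.49 in wild type, and PCDHGC4 at 1.20, 1.80 and 0.462 against 1.44, 1.21 and 1.07. Both overlapped and were not called (edgeR adjusted p = 0.311 and 0.883). PCDHGC5 was not tested.

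In the alpha cluster, PCDHAC2, the last of its C-type members, was at 9.15, 12.4 and 9.75 CPM in NKX2-2 knockout and 5.14, 5.61 and 3.67 in wild type (log2 fold change 1.11, SE 0.19, edgeR adjusted p = 0.000621). PCDHA12 was at 14.4, 16.4 and 13.5 CPM in knockout and 25.1, 23.3 and 20.4 in wild type (log2 fold change -0.63, SE 0.13, edgeR adjusted p = 0.00211). For both genes every knockout library lay on 1 side of every wild type library. PCDHA4, the alpha member with the highest mean TPM in this experiment, was at 42.7, 43.1 and 40.9 CPM in knockout and 46.9, 43.3 and 43.3 in wild type (log2 fold change -0.07, SE 0.10, edgeR adjusted p = 0.616). PCDHA10 was at 31.4, 34.1 and 31.2 CPM in knockout and 45.9, 37.7 and 36.2 in wild type, apart but not past the threshold (edgeR adjusted p = 0.0673; 0.0404 without wild type replicate 3). PCDHAC1 was at 4.70, 4.40 and 4.15 against 5.43, 4.40 and 3.95 CPM, with overlap. The other 7 tested alpha members had log2 fold changes between -0.51 (PCDHA9) and 0.41 (PCDHA5).

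**Figure D3:**
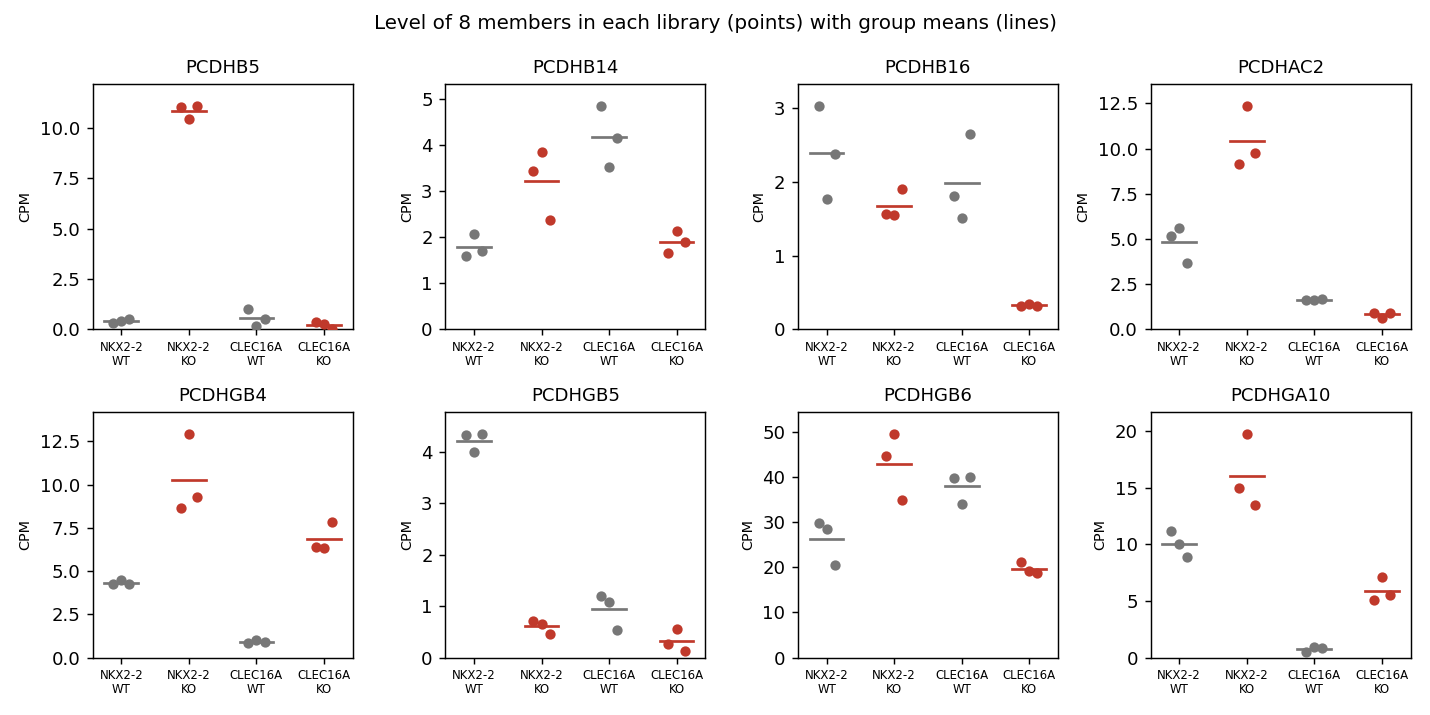
Level in CPM (vertical axes, from 0) of 8 members in each library (points) with the group mean (line), by group. PCDHGB4 and PCDHGA10 were higher and PCDHGB5 was lower in both knockouts than in their wild types, while PCDHB14, PCDHAC2 and PCDHGB6 were higher in NKX2-2 knockout and lower in CLEC16A knockout.

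After CLEC16A knockout, 4 members rose and 9 fell among 32 tested, with the largest rises in PCDHGA10 and PCDHGB4 and the largest fall in PCDHB16. Of all 19958 genes tested, 45% were called (23.7% higher, 21.3% lower), against 40.6% of the tested members. Changes of at least 2-fold were called for 7 tested members and for 13.9% of all genes, and the groups did not overlap for 17 of the 32 and for 53.8% of all genes. In the alpha cluster 1 rose and 2 fell of 13, in the beta cluster 0 rose and 3 fell of 11, and in the gamma cluster 3 rose and 4 fell of 8. The median absolute log2 fold change was 0.31 over the tested alpha, 0.74 over the beta and 1.05 over the gamma members, against 0.34 over all genes. In the NKX2-2 experiment these medians were 0.32, 0.39 and 0.69, against 0.31. The 22 members that were not tested had at most 18 counts in any library of the CLEC16A experiment.

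PCDHGA10 was at 5.04, 7.11 and 5.49 CPM in CLEC16A knockout and 0.488, 0.966 and 0.881 in wild type (log2 fold change 2.92, SE 0.26, edgeR adjusted p = 3.15e-09). PCDHGB4 was at 6.37, 6.33 and 7.83 CPM in knockout and 0.832, 0.996 and 0.911 in wild type (log2 fold change 2.90, SE 0.22, edgeR adjusted p = 1.74e-10). The groups of both genes were several-fold apart. PCDHGB5 was at 0.259, 0.559 and 0.128 CPM in knockout and 1.20, 1.09 and 0.547 in wild type, standing for 8, 18 and 4 counts against 42, 36 and 18. Its groups overlapped, and its call (log2 fold change -1.57, SE 0.52, edgeR adjusted p = 0.0181) was lost without knockout replicate 1 (0.0704), knockout replicate 3 (0.0844), wild type replicate 1 (0.0923) or wild type replicate 2 (0.0666). The summed level of PCDHGB4 and PCDHGB5 was 7.16 ± 0.71 CPM in knockout and 1.86 ± 0.35 in wild type (SD, n = 3), so the pair was higher in knockout as a sum too.

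PCDHGB6 was at 21.2, 19.1 and 18.7 CPM in CLEC16A knockout and 39.8, 33.9 and 39.9 in wild type (log2 fold change -0.95, SE 0.09, edgeR adjusted p = 1.86e-08), the reverse of the other experiment. Its share of the gamma counts was 37.4% ± 1.4 in knockout and 65.7% ± 1.6 in wild type (SD, n = 3). PCDHGB7 was at 5.40, 3.85 and 5.43 CPM in knockout and 7.26, 6.31 and 6.53 in wild type (log2 fold change -0.45, SE 0.17, edgeR adjusted p = 0.036). The groups were apart by little, and the call was lost with DESeq2 (0.0648), in a fit of all 12 libraries (0.0923) and without knockout replicate 2 (0.185), wild type replicate 1 (0.132) or wild type replicate 3 (0.0625). Both other gamma calls were C-type members. PCDHGC3 was at 13.2, 11.3 and 12.2 CPM in knockout and 5.88, 3.89 and 8.87 in wild type (log2 fold change 0.98, SE 0.22, edgeR adjusted p = 0.00215). PCDHGC4 was at 1.84, 1.02 and 1.22 CPM in knockout and 2.64, 2.72 and 3.49 in wild type (log2 fold change -1.11, SE 0.27, edgeR adjusted p = 0.00183). Their groups did not overlap, and these C-type neighbours differed in direction.

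**Figure D4:**
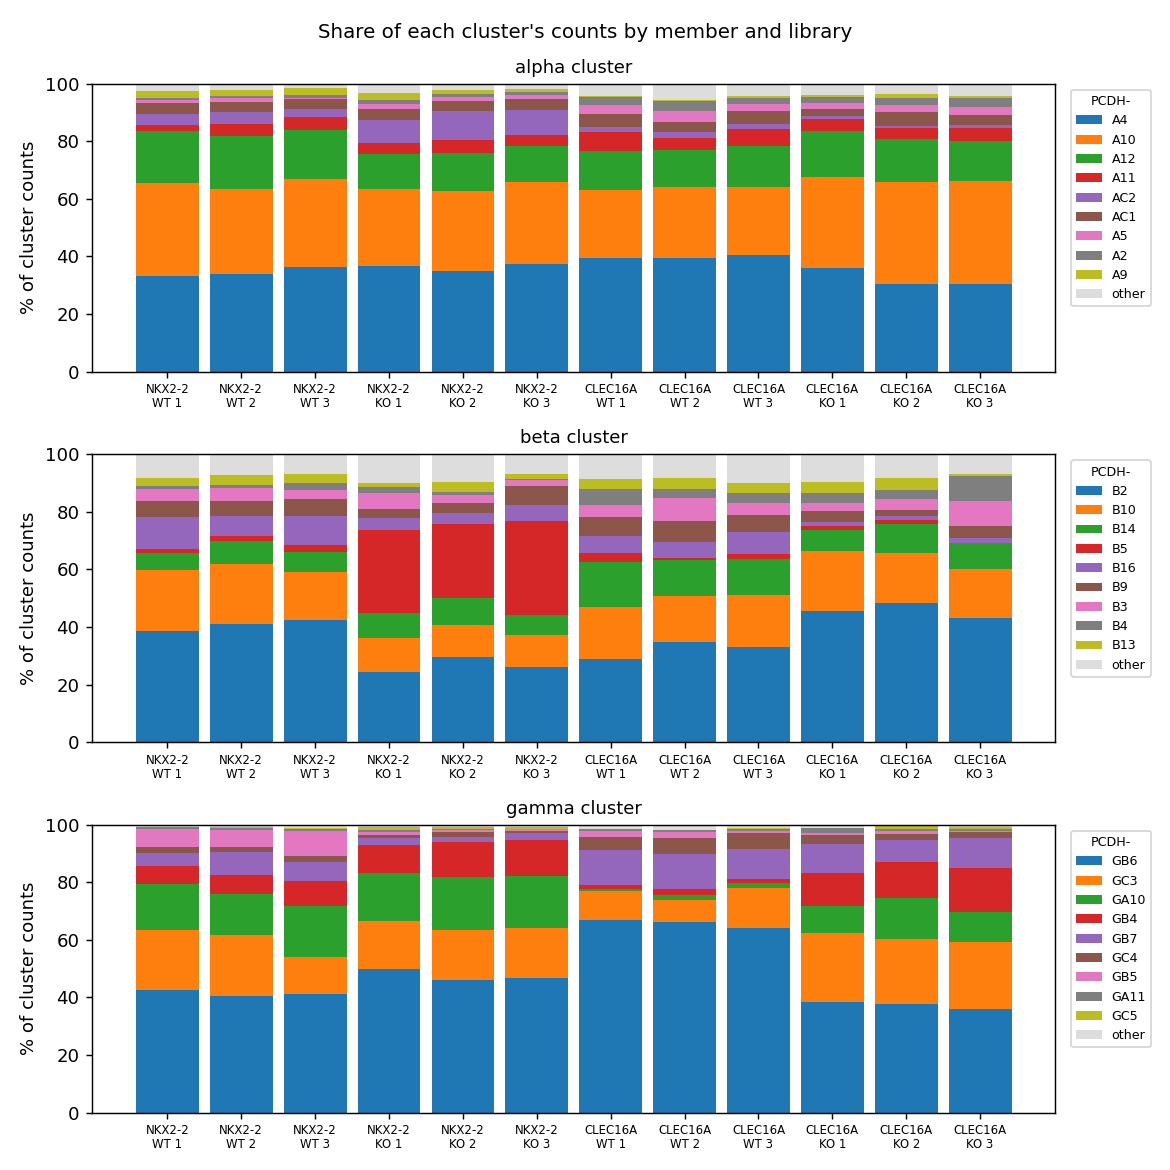
Share of each cluster's counts (vertical axis, percent) taken by its 9 members with the highest mean share (colours) and by all others (grey) in each of the 12 libraries. In the gamma cluster PCDHGB6 took 65.7% in CLEC16A wild type and 37.4% in knockout, and in the beta cluster PCDHB5 took 28.9% in NKX2-2 knockout and 1.67% in its wild type.

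The beta members that fell after CLEC16A knockout were PCDHB16, PCDHB9 and PCDHB14. PCDHB16 was at 0.323, 0.342 and 0.321 CPM in knockout and 1.81, 1.51 and 2.64 in wild type (log2 fold change -2.58, SE 0.38, edgeR adjusted p = 6.95e-06). PCDHB9 was at 0.808, 0.435 and 0.899 CPM against 2.15, 2.05 and 1.88 (log2 fold change -1.50, SE 0.33, edgeR adjusted p = 0.000703), and PCDHB14 at 1.65, 2.14 and 1.89 against 4.85, 3.53 and 4.16 (-1.14, SE 0.22, adjusted p = 0.000178). All wild type libraries were above all knockout libraries for each of the 3 genes. PCDHB2 was at 10.5, 10.2 and 9.08 CPM in knockout and 9.01, 9.78 and 10.9 in wild type, with overlap. PCDHB5, the largest rise of the other experiment, was at 0.388, 0.248 and 0.032 CPM in knockout and 1.00, 0.181 and 0.516 in wild type, with overlap and at most 35 counts per library (edgeR adjusted p = 0.125). The log2 fold changes of the 11 tested beta members ran from -2.58 to 0.00.

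In the alpha cluster PCDHA10 was at 30.3, 32.5 and 32.9 CPM in CLEC16A knockout and 22.5, 22.1 and 22.5 in wild type (log2 fold change 0.51, SE 0.09, edgeR adjusted p = 3.41e-05). PCDHA4 was at 34.6, 27.9 and 28.3 CPM against 37.7, 35.5 and 39.1 (log2 fold change -0.31, SE 0.09, edgeR adjusted p = 0.00884), a call lost without knockout replicate 2 (0.0539). Their groups did not overlap, and the changes were 1.43-fold for PCDHA10 and 1.24-fold for PCDHA4. PCDHAC2 was at 0.905, 0.652 and 0.931 CPM in knockout and 1.64, 1.63 and 1.67 in wild type (log2 fold change -0.99, SE 0.33, edgeR adjusted p = 0.0167), a call also lost without knockout replicate 2 (0.0611). PCDHAC1 was at 2.42, 4.25 and 3.08 against 4.42, 3.29 and 4.37 CPM, and PCDHA12 at 15.3, 13.7 and 12.7 against 13.1, 11.3 and 13.7 CPM. Both overlapped. With limma on log2(TPM + 1), the calls of PCDHA10 (adjusted p = 0.535), PCDHGC3 (0.1), PCDHGB5 (0.22) and PCDHGB7 (0.376) were lost, and with no filter also those of PCDHGC4 (0.0741) and PCDHAC2 (0.0669). For PCDHA10 the limma fit rests on the uneven TPM described above, so it is a poor check of that call.

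The knockout effects were compared directly, as the NKX2-2 effect minus the CLEC16A effect, in one edgeR fit of the 12 libraries. Of all 20494 genes tested, 38.2% were called, and 13 of 34 members (38.2%) were. All 6 beta calls were higher (PCDHB5, PCDHB7, PCDHB12, PCDHB16, PCDHB14 and PCDHB9), 1 alpha call was higher (PCDHAC2) and 3 were lower (PCDHA9, PCDHA10 and PCDHA12), and 1 gamma call was higher (PCDHGB6) and 2 were lower (PCDHGA10 and PCDHGB4). Under upper-quartile scaling the calls over all genes were split as 4703 higher and 3517 lower, against 3648 and 4183 with the scaling used here, and the median over all genes moved from 0.04 to 0.16. All 13 members were called under it too, while 12 of them were with DESeq2 or with no count filter, and 11 to 13 on leaving out a library. The calls lost were those of PCDHA9, PCDHB7 and PCDHB12.

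Of 28 members tested in both experiments, 7 (25%) were called in both, 4 in the same and 3 in opposite directions. Over all 16975 genes tested in both, 20.6% were called in both, 1481 in the same and 2018 in opposite directions, so the members' share is near that of all genes. PCDHGB4 and PCDHGA10 rose and PCDHGB5 and PCDHGB7 fell in both, while PCDHAC2, PCDHB14 and PCDHGB6 rose after NKX2-2 knockout and fell after CLEC16A knockout. For these 3 the difference was itself called, at 2.11 (SE 0.31) for PCDHAC2, 2.00 (SE 0.34) for PCDHB14 and 1.67 (SE 0.19) for PCDHGB6 on the log2 scale (edgeR adjusted p = 9.58e-06, 4.99e-05 and 2.81e-07). PCDHGB4 and PCDHGA10 rose more after CLEC16A knockout, with differences of -1.64 (SE 0.28) and -2.23 (SE 0.30). For PCDHGB5 and PCDHGB7 no difference was called (edgeR adjusted p = 0.12 and 0.16), but that of PCDHGB5 was without CLEC16A knockout replicate 3 (-1.57, adjusted p = 0.0372).

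Levels of other cells' markers moved with the same groups. Beside the counts below, 33.4% of all genes were called after NKX2-2 knockout and 45% after CLEC16A knockout. After NKX2-2 knockout 12 of 13 mesenchyme markers rose and 0 fell, with a summed level of 7330 to 8398 CPM in knockout and 2822 to 3147 CPM in wild type, and no marker of that list was at 0 in any library. After CLEC16A knockout 9 of 12 tested mesenchyme markers fell and 0 rose, at 55.3 to 63.7 against 187 to 197 CPM, with DCN at 0 in 2 libraries. Neuron markers, several of which endocrine cells share, rose in 6 and fell in 1 of 13 tested after NKX2-2 knockout (summed level 1081 to 1179 against 827 to 887 CPM) and fell in 13 of 14 after CLEC16A knockout (406 to 448 against 866 to 947 CPM). SOX10 was at 0 in 4 libraries of the latter. Liver and gut markers rose in 8 of 10 after CLEC16A knockout, with 0 lower (15482 to 16915 against 6508 to 6807 CPM), and in 2 of 9 with 3 lower after NKX2-2 knockout (9899 to 12330 against 9937 to 11542 CPM). Endothelial markers rose in 4 and fell in 2 of 8 after NKX2-2 knockout (104 to 113 against 97.9 to 123 CPM) and rose in 1 and fell in 3 of 7 after CLEC16A knockout (135 to 148 against 147 to 167 CPM). The part of these cells in the protocadherin results was not tested.

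Acinar and duct markers rose in 3 and fell in 1 of 6 after NKX2-2 knockout (702 to 771 against 715 to 815 CPM) and rose in 5 and fell in 1 of 7 after CLEC16A knockout (838 to 855 against 632 to 666 CPM). Markers of undifferentiated stem cells rose in 1 and fell in 0 of 4 tested after NKX2-2 knockout (18.5 to 23.5 against 14.2 to 17.6 CPM) and rose in 3 and fell in 1 of 4 after CLEC16A knockout (28.9 to 30.4 against 51.4 to 59.4 CPM). In the latter LIN28A fell from 52.3 ± 4.0 to 15.1 ± 0.68 CPM, and ZFP42 was at 0 in all 3 wild type libraries and at 7.94 ± 1.0 CPM in knockout (SD, n = 3). NANOG was at 0 in all 6 NKX2-2 libraries and POU5F1 in 5 of them.

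Protocadherins encoded outside the clusters, which share the cadherin repeats but not the promoter choice, changed in both experiments. After NKX2-2 knockout 5 of 15 rose and 3 fell, and after CLEC16A knockout 4 rose and 7 fell, beside 33.4% and 45% of all genes called in either direction. PCDH18 was at 130 ± 20.1 CPM in NKX2-2 knockout and 42.8 ± 4.5 in wild type (SD, n = 3, log2 fold change 1.61), whereas PCDH1 fell by 1.23 and CDHR2 by 1.08 on the log2 scale. After CLEC16A knockout CDHR5 rose from 96.5 ± 3.5 to 504 ± 33.3 CPM (log2 fold change 2.38) and CDHR2 from 11.4 ± 0.6 to 81.9 ± 4.7 CPM (2.85). CDHR2 and CDHR5 join the tips of microvilli in gut and kidney. PCDH7 rose by 1.75.

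Few genes of the machinery that loops cluster promoters to enhancers were called. Of all genes, 33.4% were called after NKX2-2 knockout and 45% after CLEC16A knockout. Of 11 CTCF and cohesin genes, SMC1A fell by 0.45 on the log2 scale (SE 0.12) after NKX2-2 knockout with 0 higher, and STAG2 and SMC3 rose by 0.26 and 0.23 (SE 0.07 and 0.06) after CLEC16A knockout with 0 lower. CTCF was not called in either. Of the genes for DNA methylation and silencing, UHRF1 fell by 0.47 after NKX2-2 knockout (1 lower and 0 higher of 16), and after CLEC16A knockout 2 rose and 5 fell of 17. Among these, EHMT2, a histone H3K9 methyltransferase, fell by 0.46, while REST, a repressor of neuronal genes, and SMCHD1, a chromatin protein known to silence the clusters, rose by 0.47 and 0.45.

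Genes for protein partners and for the proteases that cleave these proteins fell in 3 and rose in 0 of 18 after NKX2-2 knockout, with RET, a receptor kinase that binds them, lower by a log2 fold change of -1.47, AXIN1 at -0.66 and NCSTN, a gamma-secretase subunit, at -0.28. After CLEC16A knockout 7 rose and 4 fell, with PTK2B, a kinase bound by the shared cytoplasmic part, at 1.21 and RET at -1.37. All libraries had been cultured with a gamma-secretase inhibitor. Of 13 tested genes that flank or lie between the clusters, 2 rose and 2 fell after NKX2-2 knockout and 4 rose and 3 fell after CLEC16A knockout. For the partners and the flanking genes alike, the shares of all genes called were 33.4% and 45%. The smallest p-values among the flanking genes belonged to DIAPH1 (log2 fold change -0.54 and 0.45), ZMAT2 (0.40) and WDR55 (-0.33) for NKX2-2, and to HARS1 (-0.47) and TMCO6 (0.32) beside DIAPH1 for CLEC16A. None of these flanking genes changed by 2-fold. Log2 fold changes among the members ran from -2.77 to 4.69, but most members were not called at 2-fold either. Such calls were made for 5 of 29 tested members after NKX2-2 knockout (12.8% of all genes). After CLEC16A knockout they were made for 7 of 32 (13.9% of all genes).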

How the data were processed

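The authors deposited raw counts per gene and TPM for each experiment. The tools named, per the submitters' processing notes, are HISAT2 2.2.1, StringTie 2.1.7 and fastp 0.22.0, with the build hg38. Which program counted reads, whether by strand and on which annotation release, is not given in the sources used here. Symbols were joined to the CLEC16A tables by gene identifier, and 45 rows for pseudoautosomal genes' Y copies were dropped.

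Each knockout was tested against its own wild type on the deposited counts with edgeR 4.0.16 in R 4.3.3 (quasi-likelihood, TMM scaling, filterByExpr), with Benjamini-Hochberg adjustment over all tested genes and a threshold of 0.05. The SE was derived from the fold change and the F statistic. CPM are on TMM-scaled library sizes within an experiment. Per-library values are given for up to 4 called members with the smallest p per cluster, direction and experiment, the tested C-type members and the member with the highest mean TPM. Of the other lists, up to 3 called genes with the smallest p are named. Some of these genes' values are not reported here. The difference of effects was an interaction over 12 libraries. Cluster sums got no test. The fits were tested on simulated counts. Deviations of same-numbered libraries correlated at -0.03 to 0.32, and those of libraries with unlike numbers at -0.24 to 0.18. That does not settle whether the numbers pair samples. The numbers are not said to mark a shared culture or day, so the main fits used no pairing. All replicate pairs differed by more than sampling noise. Depth limits the precision of low counts. As alternatives, each library was left out in turn, and DESeq2 1.42.0, limma 3.58.1 (log2 of TPM plus 1 or 0.1), upper-quartile or RLE scaling, other filters, a joint fit of the 12 libraries and a replicate block were run. Sums without PCDHB5 and sums of pairs with near-identical promoters were added after seeing the data. Members and lists were chosen with earlier results of these data known.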

Additional observations from a re-analysis of the deposited data

Results flagged for a closer look

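The effects of the knockouts differed, by the interaction test in edgeR, for 13 members. As the NKX2-2 effect minus the CLEC16A effect on the log2 scale, the beta members stood at 6.05 (PCDHB5), 2.23 (PCDHB7), 2.07 (PCDHB12), 2.07 (PCDHB16), 2.00 (PCDHB14) and 1.75 (PCDHB9). The alpha members were at 2.11 (PCDHAC2), -1.52 (PCDHA9), -0.81 (PCDHA10) and -0.76 (PCDHA12), and the gamma members at 1.67 (PCDHGB6), -1.64 (PCDHGB4) and -2.23 (PCDHGA10). PCDHB7 was not tested in the CLEC16A experiment alone, nor PCDHB12 in the NKX2-2 experiment alone, because of low counts, and PCDHA9 was called in neither. The call of PCDHB12 was lost with DESeq2 (adjusted p = 0.0591), with no count filter (0.0525) and without any of 8 single libraries (NKX2-2 knockout replicate 1, its wild type replicates 2 and 3, CLEC16A knockout replicates 2 and 3 and its wild type replicates 1 to 3, adjusted p from 0.0601 to 0.213). That of PCDHB7 was lost without NKX2-2 knockout replicate 1 (0.06), CLEC16A knockout replicate 1 (0.056) or CLEC16A wild type replicate 3 (0.0879), and that of PCDHA9 without NKX2-2 knockout replicate 3 (0.0555), CLEC16A knockout replicate 2 (0.065) or CLEC16A wild type replicate 2 (0.0641).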

How the results depend on the processing

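PCDHB5, PCDHGB5, PCDHAC2, PCDHA12 and PCDHGA10 after NKX2-2 knockout, PCDHGA10, PCDHGB4, PCDHGB6, PCDHB16, PCDHB9 and PCDHB14 after CLEC16A knockout, and all 10 named differences that were called, kept their direction and their side of the threshold under every alternative run for them. On TPM with limma, 2 members rose after CLEC16A knockout under all 3 settings, and with log2(TPM + 1) and no filter 5 fell there and 3 rose after NKX2-2 knockout. Leaving out 1 library, 5 to 6 members rose and 2 to 4 fell after NKX2-2 knockout, 4 to 5 and 6 to 10 after CLEC16A knockout, and 6 to 9 and 4 to 6 were called in the difference. A replicate block gave 7 and 4 members for NKX2-2, with 4077 and 3960 genes in all against 2888 and 2936, and the same 4 and 9 for CLEC16A. After NKX2-2 knockout PCDHA10 was called with the block (adjusted p = 0.0119), no count filter (0.04), the fit of all 12 libraries (0.0304) and without wild type replicate 3 (0.0404), and PCDHGC3 with the block (0.0171) and limma on log2(TPM + 1) (0.0298) or log2(TPM + 0.1) (0.0367). In the difference, calls were gained by PCDHA4 with upper-quartile scaling (0.0407), PCDHGA2 with no count filter (0.0322), PCDHGC3 without NKX2-2 wild type replicate 3 (0.0284), PCDHGC4 without NKX2-2 knockout replicate 3 (0.0149) and PCDHGB5 (0.0372) and PCDHB3 (0.0439) without CLEC16A knockout replicate 3. After CLEC16A knockout PCDHB10 was called lower with upper-quartile scaling (0.0353), limma on log2(TPM + 1) (0.0262) or log2(TPM + 0.1) (0.0271), and without knockout replicate 1 (0.0335) or wild type replicate 2 (0.031). PCDHA11 fell with upper-quartile scaling (0.0489) and without wild type replicate 2 (0.0173). PCDHA9 rose in the fit of all 12 libraries (0.0383) and without wild type replicate 3 (0.0356). PCDHB12 fell with upper-quartile scaling (0.0377) and PCDHB3 without knockout replicate 3 (0.0239).

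The log2 ratio of the CLEC16A alpha sum was -0.080 with upper-quartile scaling, -0.16 with library totals and -0.18 from TPM, that of the beta sum -0.66 with library totals, and that of the gamma sum -0.29 with library totals and -0.39 from TPM. The NKX2-2 beta sum gave 0.29 from TPM and 0.12 without PCDHB5. The cause was not tested. Upper-quartile scaling moved the median of all genes to 0.09 and -0.09, and limma on TPM to -0.11 in the CLEC16A experiment, with 3079 genes higher and 4652 lower against 4732 and 4253.

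Reversals concerned values that were not called. After CLEC16A knockout they were PCDHA12 with limma (-0.40, -0.43 and -0.40) and PCDHB2 with upper-quartile scaling (-0.070), no filter (-0.00027) and limma (-0.053, -0.057 and -0.053), and without single libraries (-0.065 to 0.075). For the difference they were PCDHB2 with RLE (0.00067) and upper-quartile scaling (0.10) and without single libraries (-0.17 to 0.078). After NKX2-2 knockout they were PCDHAC1 (0.0029 with upper-quartile scaling, 0.061 without wild type replicate 1), PCDHB2 (0.040 with upper-quartile scaling, 0.018 and 0.065 without knockout replicates 1 and 3), PCDHB9 (-0.043 to 0.35 without single libraries, below 0 without knockout replicate 3) and PCDHGC4 (0.24, 0.57 and 0.24 with limma, -0.59 to 0.28 without single libraries). Low counts limit the 16 members that never exceeded 10 counts.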

Other observations

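The wild types of the experiments, scaled separately and so set side by side with no test, differed in the levels of some members. Genes outside the clusters differed as well. EHMT2 had 0 counts in all 6 NKX2-2 libraries and was at 89.6 CPM in CLEC16A wild type. CHGA was at 480 CPM in the NKX2-2 wild type and 25233 CPM in the CLEC16A wild type. Whether reads were counted alike was not tested, so these gaps cannot be read as expression alone. PCDHGA10 was at 8.86 to 11.2 CPM in the wild type of the NKX2-2 experiment and at 0.488 to 0.966 CPM in that of the CLEC16A experiment, and PCDHGB4 at 4.23 to 4.50 and 0.832 to 0.996 CPM. PCDHGB5 was at 3.99 to 4.35 and 0.547 to 1.20 CPM. PCDHB2 was at 9.93 to 10.5 and 9.01 to 10.9 CPM.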
